A study of Mus musculus with 44 samples.

Results

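The 5 mouse 2-cell embryos labelled HET2 (HET2a to HET2e) were compared with 14 wild-type 2-cell embryos, out of 44 embryos sequenced singly in the whole series. HET2 embryos were taken as the libraries labelled cKO x HET and HET2, and wild-type (WT) embryos as those labelled ctrl x WT. HET2 embryos came from Dppa2/4m- females, in which a conditional Dppa2/4 allele (flanked by LoxP sites before the second exon of Dppa4 and after exon 7 of Dppa2) had been deleted in growing oocytes by Zp3-Cre, and from Dppa2/4+/- males. They are therefore Dppa2/4+/-, with a deleted maternal and an intact paternal allele, and lack the maternal store of both gene products. The study told them from their Dppa2/4-/- littermates (HOM, 10 embryos) by the transcripts of the same 2 genes. WT embryos came from control females and WT males and are Dppa2/4+/+. The remaining 15 embryos (HET1) came from Dppa2/4m- females and WT males, so that their genotype equals that of HET2 and the father differs. All embryos were obtained from natural matings on a C57Bl/6 background, and the zona pellucida was removed before lysis.

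The labels name a first and a second mating for each cross, which are called litters here. HET2a to HET2d came from mating 1 and HET2e was the only HET2 embryo of mating 2, whereas 10 WT embryos came from mating 1 and 4 from mating 2. The matings of different crosses are separate litters, and effects of litter and of group cannot be told apart between HET2 and WT embryos. The calls and the gene lists are therefore described for all 5 HET2 embryos and for the 4 embryos of mating 1 without HET2e. HOM embryos are littermates of HET2 embryos, 3 in mating 1 and 7 in mating 2, and their values are given beside those of HET2 where they bear on a litter.

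Dppa2 and Dppa4 are neighbouring genes that encode paired DNA-binding proteins with a SAP domain, found in oocytes, early embryos, pluripotent cells and the germ line. In embryonic stem cells they are known to activate Dux and with it a set of genes that the 2-cell embryo uses, among them the Zscan4 cluster and genes driven by MERVL repeats, and to keep bivalent promoters free of DNA methylation. The mouse 2-cell embryo is the stage at which the major wave of zygotic genome activation takes place while the mRNAs stored in the oocyte are degraded. The comparison asks how the transcriptome at this stage looks when the maternal products were missing and the embryo could use only its paternal copy. Each library holds a whole embryo, so that fewer expressing cells and less RNA per cell cannot be told apart.

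The files hold log2 RPM, that is read counts per gene scaled to library size, for 35269 genes. Genes without reads stand at 0.9 read, which places the lowest value of an embryo between -1.81 and 1.86 depending on its depth. Every value below 1.86 (3.63 RPM) was therefore set to 1.86, and this level is called the floor. HET2 libraries held 698469 to 2136068 reads and WT libraries 637704 to 3163026, and 8515 to 10022 genes lay above the floor in HET2 embryos against 7133 to 9889 in WT embryos. Neither total reads (adjusted p = 0.533) nor genes above the floor (adjusted p = 0.708) differed beyond the spread of the embryos in an exact permutation test, two-sided, over 4 library values. Differences are given on the log2 scale of floored values with their SE, and understate changes of genes near the floor. Adjusted p-values are from limma with Benjamini-Hochberg adjustment over all 16294 genes tested (16287 without HET2e), with a threshold of 0.05. Markers of the 2-cell stage were present: Zscan4d, Zfp352, Tmem92 and Sp110 lay above the floor in 5 of 5 HET2 embryos, Tcstv1 and Tcstv3 in 4, and Zscan4c and Usp17ld in 3.

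All 5 HET2 embryos had reads of Dppa2 and Dppa4, and for Dppa4 each embryo was below the WT range. In GRCm38, Dppa4 lies at chr16:48283733-48294237 and Dppa2 at chr16:48303908-48319723, both protein-coding on the forward strand. Dppa2 stood at 5.67, 6.66, 4.77, 6.11 and 8.88 log2 RPM in HET2a to HET2e, against a lowest, median and highest WT value of 7.67, 8.39 and 9.40. The 4 embryos of mating 1 lay below all 14 WT embryos, and HET2e lay inside the WT range. Dppa4 stood at 4.52, 5.24, 5.27, 5.18 and 5.77 in HET2a to HET2e, against 6.33, 7.12 and 8.47 in WT embryos. All 5 embryos lay below all WT embryos for this gene. With 5 embryos, the differences of -2.04 ± 0.43 for Dppa2 and -1.93 ± 0.41 for Dppa4 did not pass the limma test (adjusted p = 0.057 for both). Without HET2e, Dppa2 fell by 2.66 (SE 0.41, adjusted p = 0.000582), a 6.31-fold lower level, and Dppa4 fell by 2.08 (SE 0.45, adjusted p = 0.0269), a 4.22-fold lower level. Among HOM littermates the highest value was 2.05 for Dppa2 and 2.02 for Dppa4, at or just above the floor. As these transcripts had placed the embryos in HET2 or HOM, the gap between the 2 groups is not a finding, and HET2 embryos with very low transcript could not have entered the group. HET1 embryos averaged 7.30 and 5.74 for Dppa2 in matings 1 and 2, and 6.46 and 4.67 for Dppa4. Between HET2 and HET1 the difference was -0.05 ± 0.43 for Dppa2 (limma p = 0.902) and -0.31 ± 0.41 for Dppa4 (limma p = 0.454), each inside its error.

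**Figure D1:**
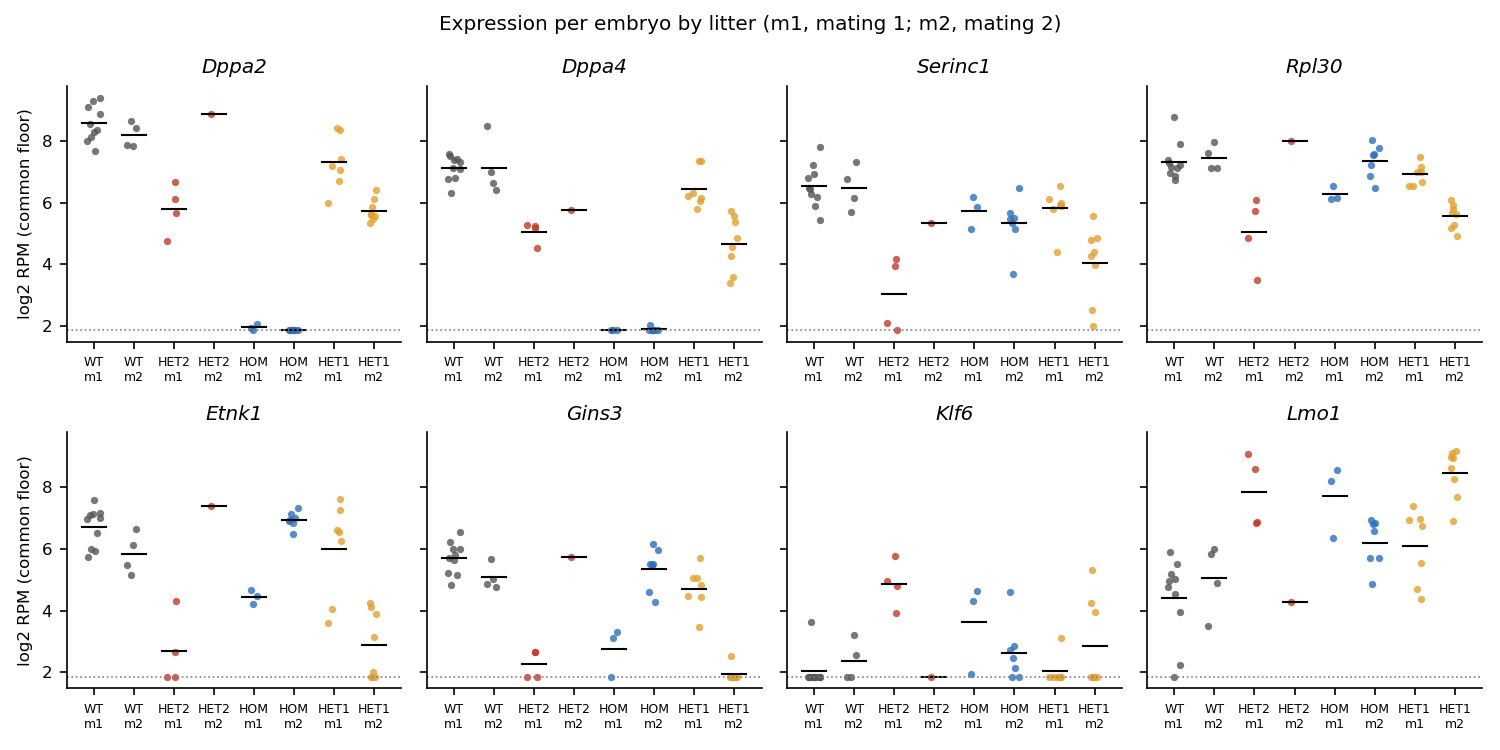
Expression of 8 genes in each of the 44 embryos, by group and mating (m1, mating 1; m2, mating 2), in log2 RPM with values below the dotted floor at 1.86 set to it; a point is an embryo and a bar is the litter mean. HET2e (HET2 m2) stands inside the WT range for 6 of the 8 genes and below it for Dppa4 and Serinc1, whereas HET2a to HET2d (HET2 m1) stand apart from most WT embryos in each panel.

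Over all 5 HET2 embryos, 5 of 16294 genes passed the threshold. One gene was lower (0.00614% of the genes tested) and 4 were higher (0.0245%), and 92.4% of genes differed by less than 1 on the log2 scale. At an unadjusted p under 0.05, 821 genes were higher (5.04%) and 565 lower (3.47%). With litter means or with the litter as a random effect 0 genes passed in limma, with 253 and 468 genes at an unadjusted p under 0.05. Leaving out any one of the WT embryos b, c, d, f, g, i and j left 1 lower and 0 higher calls. The balance also depended on the WT embryos and their weights, with 2 higher and 96 lower calls without the WT embryos of mating 1 and 52 higher and 65 lower with array weights.

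The lower gene was Serinc1, a membrane protein of the serine incorporator family, at chr10:57515774-57532530. It stood at 1.86, 4.17, 2.1, 3.95 and 5.34 log2 RPM in HET2a to HET2e, from 1, 20, 3, 17 and 70 reads. WT embryos ranged from 5.43 to 7.80 with a median of 6.45, above every HET2 embryo. The difference was -3.04 ± 0.54 (adjusted p = 0.0165), an 8.24-fold lower level, and -3.51 ± 0.56 without HET2e (adjusted p = 0.000819). HET2e was the HET2 embryo nearest to the WT range. Serinc1 averaged 5.72 and 5.33 in HOM embryos of matings 1 and 2, and 5.81 and 4.04 in HET1 embryos of matings 1 and 2, so that its level was lowest in HET2 embryos of mating 1. It was no longer called without HET2a (adjusted p = 0.0865), without HET2c (adjusted p = 0.0593) or without the WT embryos of mating 1 (adjusted p = 0.0567), with differences of -2.64, -2.70 and -3.0. The call was also lost with the litter as a random effect (-2.99, adjusted p = 0.366) and with litter means (-2.33, adjusted p = 1.0). Serinc3, a second member of the family, stood at 6.36 ± 0.53 (SD, n = 5) in HET2 and 7.26 ± 0.36 (SD, n = 14) in WT embryos, a difference of -0.90 ± 0.29 that did not pass the test (adjusted p = 0.38).

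The 4 higher genes were all close to the floor, and each lost its call without any one of 7 WT embryos and in both fits that account for the litter. Gm45205 was at 3.43, 3.66, 4.42, 4.61 and 1.86 in HET2a to HET2e, from at most 27 reads, and above the floor in 3 of 14 WT embryos (difference 1.46 ± 0.29, adjusted p = 0.0371). This gene model at chr7:127993269-127996598 lies opposite Pycard, and reads of the 2 cannot be told apart without strand. The other 3 calls rested on at most 36 reads in a HET2 embryo. Zfp813-ps, a processed pseudogene at chr1:117603878-117606484, was at 3.23, 3.17, 3.10, 3.67 and 2.53, from 6 to 20 reads, and at the floor in all 14 WT embryos, of which 3 had any read (1.28 ± 0.26, adjusted p = 0.0427). Copies of one family can share reads, and the counts of such pseudogenes are uncertain. Gm14325 was at 4.07, 1.86, 1.86, 3.32 and 4.26 and above the floor in 1 WT embryo (1.13 ± 0.22, adjusted p = 0.0334), so that HET2b and HET2c stood with the WT embryos. Dubr, a long noncoding RNA gene at chr16:50719294-50732773, was at 1.86, 2.17, 3.33, 3.56 and 1.86, from at most 13 reads, and at the floor in all WT embryos (0.69 ± 0.14, adjusted p = 0.0427). Gm45205 and Gm14325 were also the only 2 genes called between HET2 and HET1 embryos (0.0123% of 16294), at 1.69 (adjusted p = 0.00657) and 1.21 (adjusted p = 0.00813) above HET1. Both of these calls were lost with the litter as a random effect and without the floor (0 genes each in limma, with 244 and 1854 at an unadjusted p under 0.05). The count rose to between 6 and 10 on leaving out a HET2 embryo, and to 22 with array weights. At an unadjusted p under 0.05, 2.52% of genes were higher and 1.69% lower in HET2 than in HET1 embryos.

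**Figure D2:**
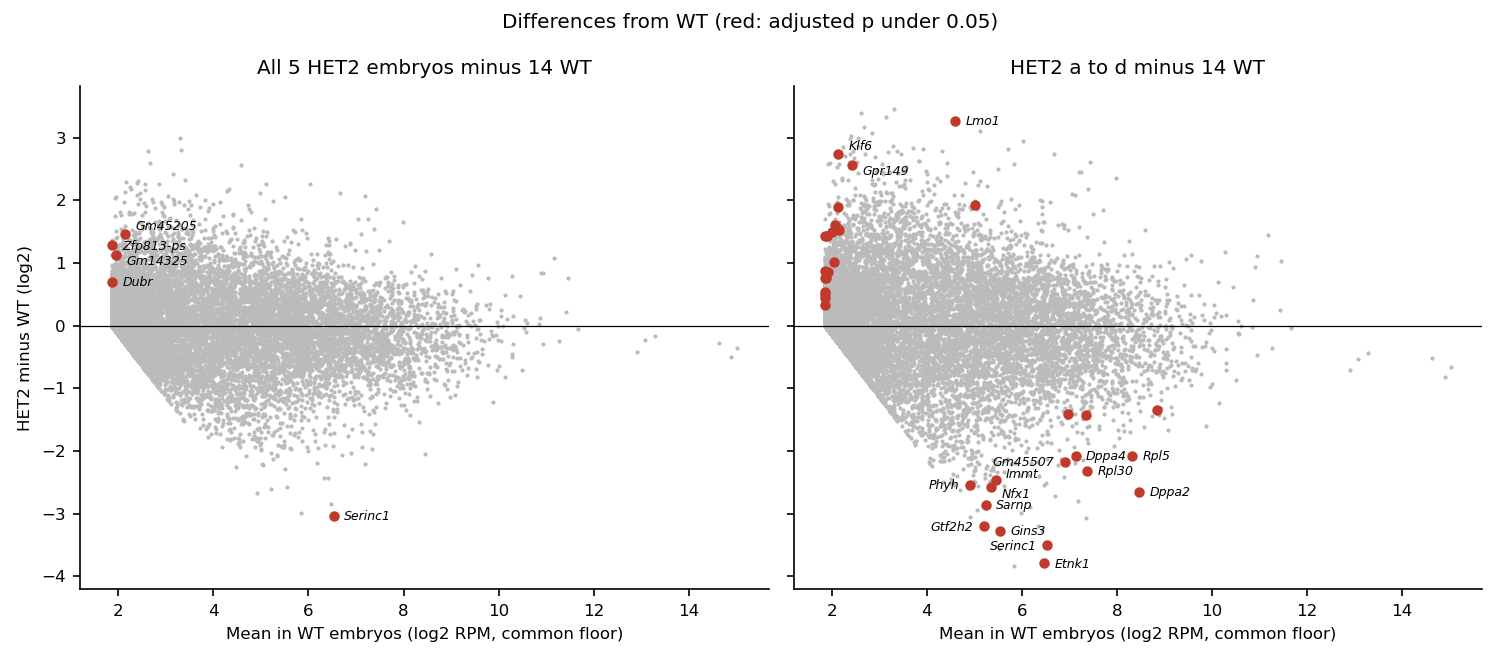
Difference between HET2 and WT embryos (y axis, log2) against the mean in WT embryos (x axis, log2 RPM with the floor) for each gene tested, with all 5 HET2 embryos on the left and without HET2e on the right; red points passed an adjusted p of 0.05. On the left 5 genes are red, 4 of them near the floor, and on the right 36, with the lower ones at WT means between 4.91 and 8.85.

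A total of 10 genes separated all 5 HET2 embryos from all 14 WT embryos without overlap, 8 lower (0.0491%) and 2 higher (0.0123%). Besides Serinc1, Dppa4, Zfp813-ps and Prc1 these were Clns1a, Mfsd14a, Prmt3, L1td1, Gm45713 and Strip2, which are named because of this separation and so after their values were seen. Prc1, which crosslinks midzone microtubules during cytokinesis, had the smallest spread in WT embryos among these genes other than Zfp813-ps, which was at the floor in all of them. It stood at 7.96, 7.44, 8.11, 8.20 and 7.74 in HET2a to HET2e and between 8.28 and 8.87 in WT embryos (-0.74 ± 0.21, adjusted p = 0.295). Clns1a, a chaperone of spliceosomal snRNP assembly, lay between 5.75 and 6.52 in HET2 and between 6.87 and 7.95 in WT embryos (-1.14 ± 0.47, adjusted p = 0.491). Strip2, a striatin-interacting protein, lay between 4.84 and 6.01 in HET2 and between 1.86 and 4.80 in WT embryos (1.76 ± 0.58, adjusted p = 0.395). The separation is what chose these genes, and of the 10 only Serinc1 and Zfp813-ps passed the threshold.

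The 10 genes per direction with the smallest p-values among genes not called, at a mean of at least 4 in HET2 or WT embryos, did not pass the adjusted threshold. Prc1, described above, is 1 of the 10 lower ones. On the lower side, Kat2b, a histone acetyltransferase, was at the floor in HET2a to HET2d and at 3.74 in HET2e, with a WT median of 5.03 (-2.68 ± 0.68, adjusted p = 0.223). Ptges3, a co-chaperone of Hsp90, was at 8.86, 9.12, 8.17, 8.26 and 9.26 against 8.74 to 10.19 in WT embryos (-0.82 ± 0.21, adjusted p = 0.24). The ranges overlapped for both. Hnrnpk, an RNA-binding protein, Utp11 of the small subunit processome, the membrane proteins Sppl3 and Rer1, Larp4b, Ndufs1 of respiratory complex I and Rab1a of vesicle traffic differed by -0.75 to -1.90, each at an adjusted p of 0.295. On the higher side, Prl8a2 of the prolactin family had the largest difference, at 6.36, 7.25, 5.22, 5.77 and 6.82 in HET2a to HET2e. Its WT embryos lay between 1.86 and 5.88 with a median of 3.04 (2.99 ± 0.82, adjusted p = 0.295), and it was at 5.60 in HOM embryos of mating 1 and 2.65 in those of mating 2. Zfp420, Dock11, Gm15246, Gm47913, Ptov1, B9d1, Prr23a1, CT030688.2 and Slco4a1 were higher by 1.79 to 2.32, at adjusted p-values of 0.106 to 0.369. In HET2e, Zfp420, Dock11 and Gm15246 stood at 5.14, 5.28 and 4.17, close to the other 4 embryos, whereas Slco4a1 and Ptov1 stood at 1.86 and 2.38 there.

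Without HET2e, 36 of 16287 genes passed, 20 higher (0.123%) and 16 lower (0.0982%). With the litter as a random effect 4 genes passed and with litter means 0, the latter with 692 genes at an unadjusted p under 0.05 in limma, so that nearly all of these calls ended in the fits that account for the litter. With the mating number as a block 116 passed. Of the 5 genes called with HET2e, 4 were among them, and Gm14325 was not (adjusted p = 0.0566). At an unadjusted p under 0.05, 1356 genes were higher (8.33%) and 765 lower (4.7%). The embryos of mating 1 did not overlap WT embryos for 52 higher (0.319%) and 79 lower genes (0.485%).

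The 16 lower genes had WT means of 4.91 to 8.85, above the floor. Etnk1, the ethanolamine kinase of phospholipid synthesis, had the largest difference at -3.79 ± 0.80 (adjusted p = 0.0233). It stood at 4.33, 1.86, 1.86 and 2.67 in HET2a to HET2d, at 7.40 in HET2e, and at 5.14 to 7.58 in WT embryos. HET2e was thus within the WT range and its 4 group members below it. Gins3, a subunit of the replicative helicase complex, stood at 1.86, 2.66, 1.86 and 2.67 with 5.75 in HET2e, against 4.78 to 6.55 in WT embryos (-3.28 ± 0.67, adjusted p = 0.0159). Gtf2h2, a subunit of the transcription and repair factor TFIIH, stood at 1.86, 2.17, 2.1 and 1.86 with 5.02 in HET2e, against 2.88 to 6.70 in WT embryos (-3.20 ± 0.64, adjusted p = 0.0147). These 3 genes had at most 43 reads in any embryo of HET2a to HET2d.

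Rpl30 and Rpl5, also lower, encode proteins of the large ribosomal subunit. Rpl30 stood at 3.49, 6.10, 4.84 and 5.74 in HET2a to HET2d and 8.01 in HET2e, against 6.72 to 8.77 in WT embryos (-2.32 ± 0.41, adjusted p = 0.00372). Rpl5 stood at 6.29, 6.63, 6.33 and 5.72 with 8.97 in HET2e, against 7.49 to 10.16 in WT embryos (-2.08 ± 0.45, adjusted p = 0.0275). Both belong to gene families with many processed pseudogenes, with which short reads can be shared.

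The other lower genes were Sarnp of mRNA export (-2.86), the zinc finger repressor Nfx1 (-2.58), the peroxisomal hydroxylase Phyh (-2.54), Immt of the mitochondrial inner membrane (-2.46), Luc7l3, a splicing factor (-1.42), Haus6 of the augmin complex (-1.35), C130073F10Rik (-1.42) and Gm45507 (-2.18), with adjusted p-values between 0.0147 and 0.0396. Haus6 lay outside the 15 lower genes taken by size. Sarnp overlaps Dnajc14 and Ormdl2, and Gm45507 overlaps Bnip3, with which reads can be shared. HET2a to HET2d lay below all WT embryos for 13 of the 16 lower genes, beside 0.485% of all genes, and HET2e lay within the WT range for 12. The choice of these genes used HET2a to HET2d and not HET2e, so that both counts are tied to it and support nothing.

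Of the 20 higher genes, 17 had a WT median at the floor and 5 had a mean of at least 4 in HET2a to HET2d. Lmo1, a LIM-only cofactor of transcription, was the most highly expressed. It stood at 6.88, 6.84, 9.10 and 8.60 in HET2a to HET2d and at 4.30 in HET2e, against 1.86 to 5.99 in WT embryos with a median of 4.94 (3.27 ± 0.74, adjusted p = 0.0369). Klf6, a zinc finger transcription factor, stood at 4.81, 3.94, 4.98 and 5.77 with HET2e at the floor, and was above the floor in 3 WT embryos, which reached 3.63 (2.74 ± 0.54, adjusted p = 0.0147). Gpr149, an orphan receptor known from oocytes, stood at 5.91, 4.76, 4.61 and 4.67 with HET2e at the floor, against 1.86 to 4.37 in WT embryos (2.57 ± 0.60, adjusted p = 0.0448). Gm4858 stood at 6.69, 6.93, 7.35 and 6.78 with 4.07 in HET2e, against 4.17 to 5.78 in WT embryos (1.92 ± 0.44, adjusted p = 0.0396). HET2a to HET2d lay above all WT embryos for each of these 4 genes and for Zfp813-ps, and for no other of the 20, beside 0.319% of all genes. HET2e lay within the WT range for 18 of the 20 higher genes. As HET2e had no part in choosing them, these counts too are tied to the choice and support nothing. AI838599, Rbmxl2, Gm8104, Olfr450, Gm5890, Morc4, Chrnb2 and A430093F15Rik were higher by 0.76 to 1.61, from at most 38 reads in an embryo, and Zfp813-ps, Gm45205 and Dubr were among the calls again. The 5 smallest differences, 0.33 to 0.75, belonged to Olfr106-ps, Gm807, Gm48969, Gm38403 and Vmn2r107, which were at the floor in all WT embryos.

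**Figure D3:**
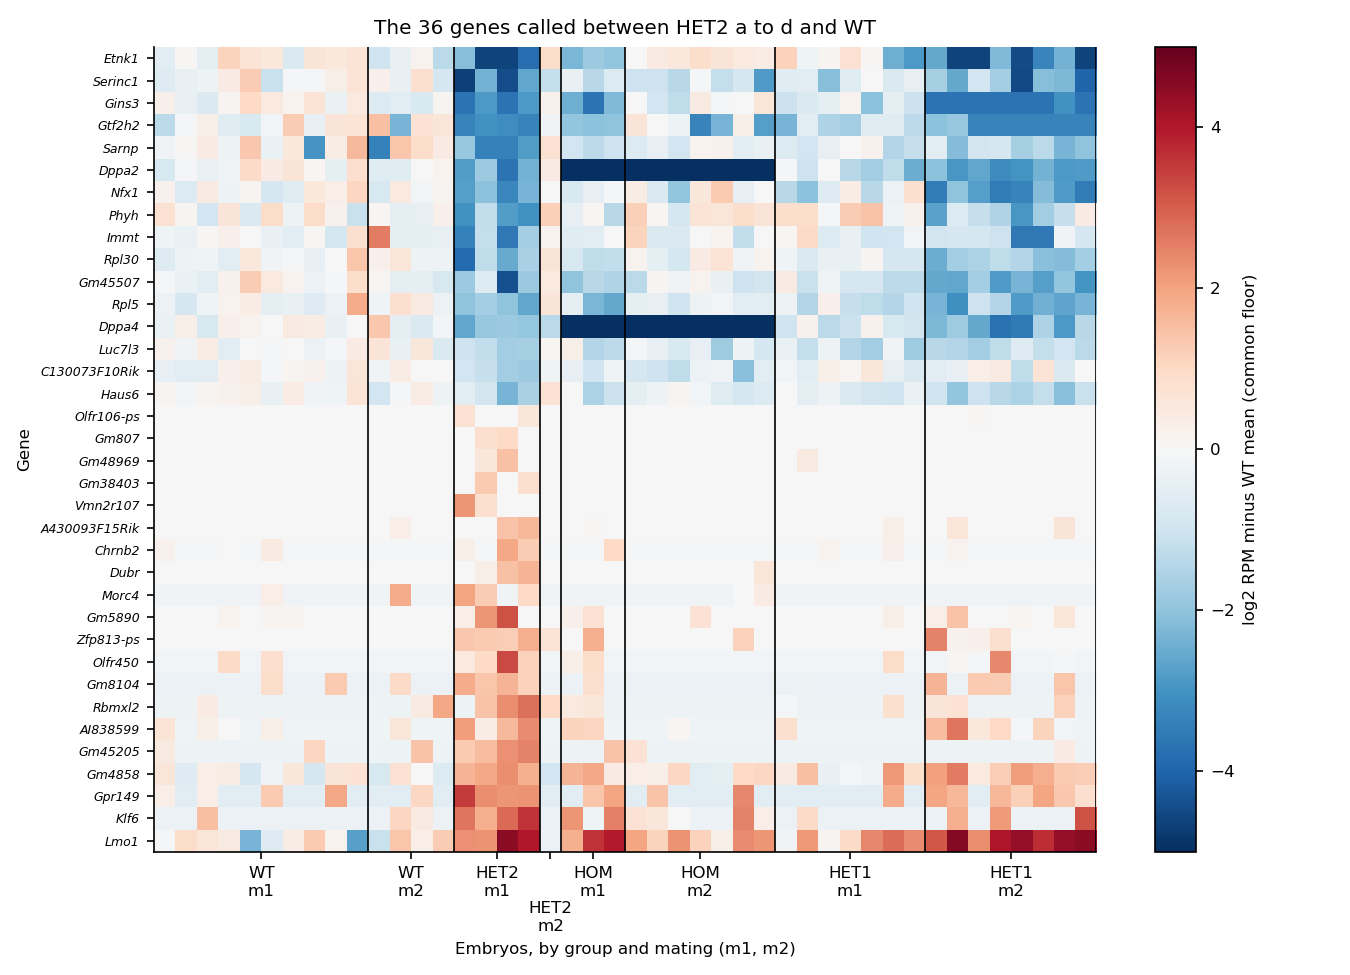
The 36 genes called between HET2a to HET2d and WT embryos (rows) in all 44 embryos (columns, by group and mating), as log2 RPM with the floor minus the WT mean. The first 16 rows are lower and the other 20 higher in HET2 m1. HET2 m2 (HET2e), which had no part in the choice of these genes, is close to 0 in most rows.

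Some of the lower genes also differed in level between the litters of other groups. Etnk1 averaged 4.45 and 6.96 in HOM embryos of matings 1 and 2, and 5.99 and 2.88 in HET1 embryos of matings 1 and 2. Gins3 averaged 2.76 and 5.36 in HOM, and 4.72 and 1.94 in HET1. For both genes the HOM embryos of mating 1 and the HET1 embryos of mating 2 had the lower mean of their group. Between the litters of HOM embryos, 13 of the 16 lower genes had a lower mean in mating 1, beside 48.8% of all genes. These means use neither HET2 nor WT embryos. Of the 13, 4 were lower at an unadjusted p under 0.05 in limma, beside 6.6% of all genes. The p-values and calls between these litters rest on a spread pooled over the groups. That spread includes HET2 and WT embryos, so that the p-values and calls are not independent of the choice of genes. The 13 include Dppa4, which was at or near the floor in both HOM litters. None of the 16 was among the 21 genes called between the HOM litters, 19 higher (0.117%) and 2 lower (0.0123%) in mating 1. Of the 20 higher genes 13 were higher in mating 1, 0 of them at an unadjusted p under 0.05 in limma, beside 40.3% and 7.37% of all genes. Against WT embryos, all 16 lower genes were also lower in HET1 embryos (median -1.63) and in HOM embryos of mating 1 (median -1.11). The 16 include Dppa2 and Dppa4. Of the 20 higher genes, 13 were also higher in HET1 embryos (median 0.06) and 12 in HOM embryos of mating 1 (median 0.28). The same WT embryos helped choose these genes, so that these counts are tied to that choice.

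Within mating 1, HET2 and HOM littermates differed by 12 calls, 2 higher (0.0123%) and 10 lower (0.0614%) in HET2. The higher genes were Dppa2 and Dppa4, and the lower ones were genes at the floor in all 4 HET2 embryos and above it in 2 of 3 HOM embryos, among them Glo1, Tmem170b and Dnah1, with at most 30 reads. At an unadjusted p under 0.05, 1.22% of genes were higher and 2.43% lower in HET2. Of the 36 genes above, Dppa2 and Dppa4 were the only ones called between these littermates. At an unadjusted p under 0.05, 16 of the 20 higher and 9 of the 16 lower genes differed between them, the latter count including Dppa2 and Dppa4, which were higher in HET2. As the HET2 embryos of this comparison also chose the 36 genes, these counts support nothing. Over both litters, with the litter as a term, the same 2 genes were the only calls of 15104 (0.0132% higher and 0 lower), with 199 genes higher (1.32%) and 498 lower (3.3%) at an unadjusted p under 0.05. Serinc1 averaged 3.02 in HET2a to HET2d, below the means of both HOM litters. HET2e, at 5.34, was level with its HOM littermates of mating 2, which averaged 5.33. The difference of -2.70 between HET2 and HOM embryos of mating 1 did not pass the limma threshold (adjusted p = 0.406).

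Genes of protein synthesis and turnover stood lower in HET2 than in WT embryos in count. Of 78 cytoplasmic ribosomal protein genes, 21 were lower and 0 higher at an unadjusted p under 0.05, against 3.47% and 5.04% of all genes, and the median difference was -0.64 beside a median of -0.00 over all genes tested. None passed the adjusted threshold with all 5 embryos. Without HET2e, 24 were lower and 0 higher (median -0.73), beside 4.7% and 8.33% of all genes, and Rpl30 and Rpl5 passed. Rps27, a protein of the small subunit, stood at 3.23, 3.94, 3.52, 5.35 and 5.21 in HET2a to HET2e against 4.37 to 7.44 in WT embryos (-1.95 ± 0.59, adjusted p = 0.372). Rplp0, of the ribosomal stalk and the member with the highest WT mean, stood at 8.41, 7.84, 9.82, 9.71 and 8.08 against 6.69 to 9.80 (0.32 ± 0.41, adjusted p = 0.898). The list as a whole made up 2856, 2971, 6456, 7067 and 6394 RPM in HET2a to HET2e and 3764 to 11814 RPM in WT embryos, so that HET2a and HET2b were below the WT range and the other 3 inside it.

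The same held for neighbouring machinery. Over all genes the shares at this p were 3.47% lower and 5.04% higher with all 5 embryos, and 4.7% and 8.33% without HET2e. Of 38 proteasome genes, 9 were lower and 0 higher at an unadjusted p under 0.05 (median -0.60), and 9 were lower and 1 higher without HET2e (median -0.72). Psma6, a subunit of the proteasome core, stood at 4.15, 4.94, 3.69, 4.77 and 7.35, against 6.16 to 8.78 in WT embryos (-2.20 ± 0.71, adjusted p = 0.38), with HET2e inside the WT range and the others below it. Of 50 translation factors 11 were lower and 0 higher (median -0.39), and 14 and 0 without HET2e (median -0.43). Eif3a, of the initiation factor that joins mRNA to the small subunit, stood at 8.20, 7.30, 7.15, 7.74 and 9.13 against 8.0 to 9.71 in WT embryos (-1.01 ± 0.35, adjusted p = 0.429). Of 59 nucleolar and ribosome biogenesis genes 8 were lower and 0 higher (median -0.45), and 10 and 0 without HET2e (median -0.49), with Npm1, the main nucleolar chaperone, at 9.14, 9.58, 8.52, 8.68 and 10.31 against 9.34 to 10.95 (-0.71 ± 0.27, adjusted p = 0.448). Of 61 spliceosome genes 5 were lower and 1, Hnrnpa1, higher (median -0.34), and without HET2e 10 were lower and 3 higher (median -0.36), beside 4.7% and 8.33% of all genes. No member of these 4 lists passed the adjusted threshold with or without HET2e.

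Nuclear and mitochondrial genes of the respiratory chain were counted apart. Of 76 nuclear-encoded subunits, 16 were lower and 0 higher at an unadjusted p under 0.05 (median -0.56), and again 16 and 0 without HET2e (median -0.66). Of all genes, 3.47% were lower and 5.04% higher with all 5 embryos, and 4.7% and 8.33% without HET2e. Uqcrb of complex III stood at 4.11, 4.94, 1.86, 2.18 and 6.86 in HET2a to HET2e against 3.71 to 7.75 in WT embryos (-2.19 ± 0.68, adjusted p = 0.377), with HET2c and HET2d below the WT range. Of the 13 mitochondrially encoded mRNAs, 0 passed an unadjusted p of 0.05 in limma with all embryos, and 3 were lower without HET2e. Their share of reads was 8.43%, 12.2%, 5.76%, 5.43% and 20.1% in HET2a to HET2e, against 7.64% to 20.2% in WT embryos with a median of 12.1%. HET2c and HET2d were below the WT range and HET2e was near its top. The group means did not differ in an exact permutation test with all 5 embryos (-2.04 percentage points, adjusted p = 0.533 over 4 values) or without HET2e (-4.47 points, exact permutation p = 0.0523, adjusted p = 0.105).

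**Figure D4:**
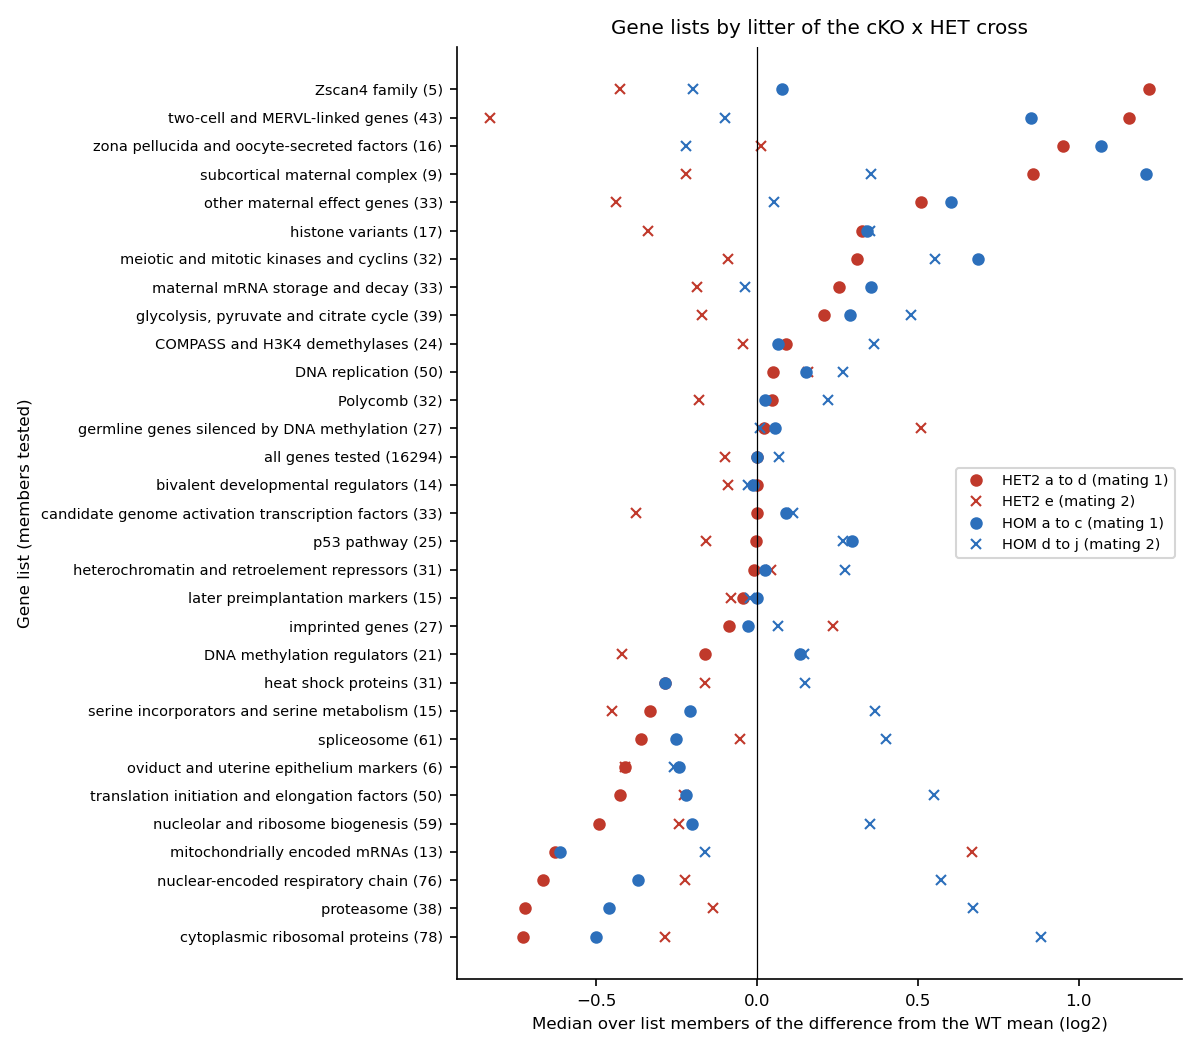
Median over the members of each gene list (y axis, number of members tested in brackets) of the difference from the WT mean (x axis, log2), for HET2a to HET2d, HET2e, and the HOM embryos of the same 2 litters, which share the WT controls. For two-cell genes HET2 a to d (1.16) and HOM a to c (0.85) lie above 0, and HET2 e (-0.83) and HOM d to j (-0.10) below. For cytoplasmic ribosomal proteins HOM d to j (0.88) stand above 0 and the others below.

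The medians of these lists differed between the litters. Ribosomal protein genes stood at -0.73 in HET2a to HET2d and -0.28 in HET2e from the WT mean, and at -0.50 and 0.88 in HOM embryos of matings 1 and 2, with the same WT controls. The proteasome list stood at -0.72 and -0.14 in HET2 and at -0.46 and 0.67 in HOM embryos in the same order. The 2 litters of HOM embryos thus lay on either side of WT embryos, and HET2a to HET2d on the side of their littermates. HET1 embryos of matings 1 and 2 stood at 0.64 and -0.44 for ribosomal protein genes and at 0.52 and -0.76 for the proteasome list. The HET1 embryos of mating 2, from another cross, thus also lay on the side of HET2a to HET2d. HET2e was below the WT mean and its HOM littermates above it, but its median level over the members of each list was inside the WT range, and its median over all genes tested was -0.0987.

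Transcripts of the zona pellucida and oocyte-secreted factors, stored from the oocyte, were higher in HET2 than in WT embryos in count, with no member past the adjusted threshold. Of 16 such genes, 6 were higher (37.5%, against 5.04% of all genes) and 0 lower at an unadjusted p under 0.05 (median 0.67). Without HET2e 5 were higher and 0 lower (median 0.95), beside 8.33% and 4.7% of all genes. Omt2b, an abundant oocyte transcript, stood at 12.62, 12.44, 12.69 and 12.70 in HET2a to HET2d and at 10.76 in HET2e, against 9.81 to 12.61 in WT embryos with a median of 11.28 (1.07 ± 0.47, adjusted p = 0.527). Zp2, a zona pellucida glycoprotein, was evenly high, at 5.84, 6.19, 5.98, 5.59 and 6.53 against 1.86 to 6.83 (1.09 ± 0.50, adjusted p = 0.541). As a sum, the list took 19154, 16970, 17544 and 16137 RPM in HET2a to HET2d and 7161 RPM in HET2e, against 4122 to 16623 RPM in WT embryos. HET2e was thus in the lower part of the WT range and 3 of its group members above that range.

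Other maternal genes differed between lists. The lists of other maternal effect genes and of maternal mRNA storage and decay each held 33 genes tested. Of the former, 5 were higher (15.2%) and 2 lower (6.06%) at an unadjusted p under 0.05 (median 0.46), and 10 higher and 1 lower without HET2e (median 0.51). Of all genes, 5.04% were higher and 3.47% lower, and 8.33% and 4.7% without HET2e. Tcl1b1, of the Tcl1 family of Akt coactivators, stood at 8.36, 8.94, 11.14 and 10.31 in HET2a to HET2d and 5.99 in HET2e, against 5.13 to 8.42 in WT embryos (1.71 ± 0.76, adjusted p = 0.531). Of the latter, 1 was higher (3.03%, below the 5.04% of all genes) and 0 lower (median 0.15), and 5 were higher (15.2%, beside 8.33% of all genes) and 0 lower without HET2e (median 0.25). That gene was Btg4, the adaptor that brings the Ccr4-Not deadenylase to maternal mRNAs, at 10.05, 9.79, 11.10 and 10.46 with 6.82 in HET2e, against 6.51 to 9.45 (1.66 ± 0.63, adjusted p = 0.448). HET2b to HET2d, and for Btg4 also HET2a, lay above all WT embryos for both genes, while HET2e was inside the WT range. The 9 genes of the subcortical maternal complex had 0 members past an unadjusted p of 0.05 in limma and a median of 0.57, or 0.86 without HET2e. HOM embryos of mating 1 stood at medians of 1.07, 0.60 and 1.21 in the zona pellucida, other maternal effect and subcortical lists, and those of mating 2 at -0.22, 0.05 and 0.35. In the same lists HET1 embryos of mating 1 stood at 0.01, 0.20 and 0.39, and those of mating 2 at 0.93, 0.81 and 1.01.

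Genes of the 2-cell stage were mostly higher in the 4 embryos of mating 1 and lower in HET2e. Of 43 two-cell and MERVL-linked genes tested, 7 were higher (16.3%) and 2 lower (4.65%) at an unadjusted p under 0.05 (median 0.74), beside 5.04% and 3.47% of all genes, with 0 past the adjusted threshold in limma. Without HET2e, 15 were higher (34.9%) and 2 lower (median 1.16), beside 8.33% and 4.7% of all genes, again with 0 past the threshold. HET2e stood on the other side, at a median of -0.83, with 39 of the 43 genes below the WT mean, beside 10509 of all 16294 genes tested. The summed level of the list was 2839, 2209, 4513 and 3529 RPM in HET2a to HET2d and 1403 RPM in HET2e, against 1244 to 2780 RPM in WT embryos. HET2a, HET2c and HET2d were above the WT range, HET2b inside it and HET2e near its lower end. HOM embryos stood at medians of 0.85 in mating 1 and -0.10 in mating 2, and HET1 embryos at -0.22 and 1.22 in matings 1 and 2.

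Zscan4d, a member of the Zscan4 cluster that marks 2-cell embryos, stood at 5.87, 5.44, 5.16 and 6.01 in HET2a to HET2d and at 2.02 in HET2e, from 7 reads. WT embryos ranged from 1.86 to 5.70 with a median of 4.49 (0.83 ± 0.69, adjusted p = 0.823). Of the 5 genes of this cluster tested, 1, Zscan4c, was higher at an unadjusted p under 0.05 and 0 lower (median 0.83), and without HET2e 3 were higher and 0 lower (median 1.22). Beside them, 5.04% of all genes were higher and 3.47% lower, and 8.33% and 4.7% without HET2e. HET2e stood at a median of -0.43 for these genes. Of the two-cell list, Gm8994 stood at 4.88, 2.66, 5.73, 4.95 and 1.86 against at most 2.56 in WT embryos (2.06 ± 0.65, adjusted p = 0.38). HET2a to HET2d were above all WT embryos for Gm8994 and HET2e was at the floor. Pramel6 and Pramel7 were the 2 lower members, and Pramel6 stood at 5.38, 5.68, 4.69, 3.56 and 6.01 against 5.29 to 6.63 (-1.06 ± 0.40, adjusted p = 0.448). Duxf3, a transcript of the Dux repeat that Dppa2 and Dppa4 are known to activate in embryonic stem cells, was at the floor in all 5 HET2 and all 14 WT embryos, with a single read in HET2a, so that no difference was detectable at this depth. The Zscan4 and Dux copies share reads, and their counts are uncertain.

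Fbxw4, an F-box protein gene, and Gm17018, which overlaps it, were examined because earlier results of these data were known. Fbxw4 stood at 6.37, 6.04, 8.36 and 7.71 with 4.07 in HET2e, against 1.86 to 5.94 in WT embryos (2.18 ± 0.70, adjusted p = 0.38), and Gm17018 at 5.76, 5.49, 7.64 and 6.89 with 3.38 in HET2e, against 1.86 to 5.19 (2.01 ± 0.64, adjusted p = 0.38). The 4 embryos of mating 1 lay above all WT embryos for both, and neither passed the test without HET2e (adjusted p = 0.0794 and 0.0707). Since the genes overlap, their reads cannot be told apart without strand.

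**Figure D5:**
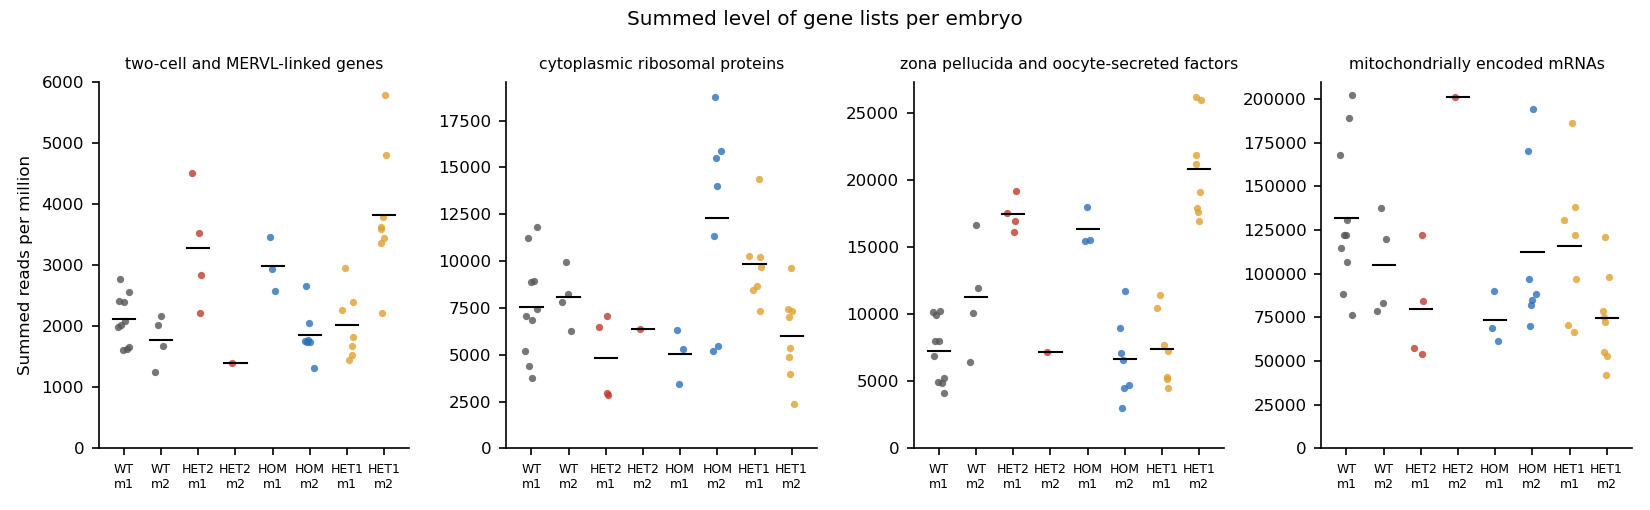
Summed RPM of 4 gene lists in each embryo (points) with the litter mean (bar), by group and mating. For two-cell and zona pellucida genes HET2 m1 is above HET2 m2, as HOM m1 is above HOM m2, and for mitochondrially encoded mRNAs HET2 m2 is above HET2 m1.

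Among candidate factors of genome activation, 2 of 33 genes were higher and 5 lower at an unadjusted p under 0.05 (median 0), with none past the adjusted threshold. Without HET2e 5 were higher and 4 lower (median 0), beside 8.33% and 4.7% of all genes. Obox6, an oocyte and embryo homeobox gene, stood at 7.46, 7.31, 6.75, 7.61 and 8.35 against 7.76 to 9.45 in WT embryos (-1.23 ± 0.40, adjusted p = 0.38). Pou5f1, the pluripotency factor Oct4, stood at 6.33, 5.90, 8.91, 7.13 and 4.77 against 1.86 to 6.57 (1.81 ± 0.63, adjusted p = 0.429). Both ranges overlapped. For chromatin, beside 5.04% of all genes higher and 3.47% lower, of 24 COMPASS and H3K4 demethylase genes 1 was higher and 1 lower, of 32 Polycomb genes 1 and 1, of 21 DNA methylation regulators 1 and 0, and of 31 heterochromatin and retroelement repressors 1 and 1. Without HET2e, beside 8.33% and 4.7% of all genes, the counts in the same order were 3 and 1, 0 and 1, 1 and 1, and 1 and 3. Of the bivalent developmental regulators, 14 of 40 passed the filter on low values, and 1, Eomes, was higher at an unadjusted p under 0.05, at a mean of 2.15 in HET2 and 1.89 in WT embryos. Without HET2e it was again 1 higher and 0 lower. Of 27 germline genes silenced by DNA methylation 1 was higher and 0 lower, and 3 and 0 without HET2e. Of 50 DNA replication genes 1 was higher, Mcm4, and 2 lower, Gins3 and Cdc7, and 1 and 5 without HET2e.

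The remaining lists had at most 3 members in either direction with all 5 embryos, and their counts without HET2e stand beside 8.33% of all genes higher and 4.7% lower. Of 32 meiotic and mitotic kinases and cyclins, 3 were higher (9.38%, beside 5.04% of all genes) and 0 lower at an unadjusted p under 0.05 (median 0.24), and 5 and 0 without HET2e. Among them Wee2, the oocyte kinase that inhibits Cdk1, stood at 8.39, 8.45, 9.01 and 8.36 in HET2a to HET2d and at 5.64 in HET2e, against 5.43 to 8.37 in WT embryos (1.38 ± 0.64, adjusted p = 0.548). Of 39 genes of glycolysis, pyruvate and the citrate cycle, 3 were higher (7.69%) and 1 lower (median 0.21), and 7 and 2 without HET2e. Slc2a1, a glucose transporter, stood at 2.36, 3.55, 5.52, 5.90 and 1.86 against 1.86 to 3.56 (1.5 ± 0.56, adjusted p = 0.447), so that HET2c and HET2d were above the WT range. Of 17 histone variant genes 1 was higher and 1 lower, and H3f3b, which encodes the replacement histone H3.3, stood at 10.90, 10.58, 10.31, 10.26 and 9.24 against 8.96 to 9.85 (0.81 ± 0.32, adjusted p = 0.463). Of 31 heat shock genes 2 were higher and 3 lower (9.68%, beside 3.47% of all genes), of 25 genes of the p53 pathway 1 and 2, of 27 imprinted genes 0 and 1, and of 15 later preimplantation markers 0 and 0. Without HET2e these counts were 1 and 4, 2 and 2, 1 and 1, and 1 and 0, and those of histone variants 3 and 2.

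Markers of other cell types that could adhere to an embryo were summed for each embryo. Of 18 cumulus and granulosa cell markers 12 had 0 reads in all HET2 embryos, and their sum was 8.12 to 34.5 RPM in HET2 and 11.7 to 79.1 RPM in WT embryos. Oviduct and uterine markers summed to 44.9 to 88.8 RPM in HET2 and 71.1 to 1699 RPM in WT embryos, of which Ovgp1, the oviduct glycoprotein, reached 10.55 log2 RPM in a WT embryo. Blood cell markers summed to at most 6.35 RPM in HET2 and 6.96 RPM in WT embryos, and sperm transcripts to 20.3 to 162 RPM and 29.7 to 105 RPM. HET2 embryos lay within or below the WT range for the first 3 of these lists. For sperm transcripts HET2c (162 RPM) and HET2d (117 RPM) lay above the highest WT embryo, and the part of these transcripts in the results was not tested.

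The 5 HET2 embryos were not alike. By correlation over 6919 genes, HET2a to HET2d had a median r of 0.747 to 0.778 with each other and 0.761 to 0.838 with HOM embryos of their litter, against 0.518 to 0.651 with HOM embryos of mating 2. Their median r was 0.614 to 0.726 with WT embryos of mating 1, 0.658 to 0.783 with those of mating 2, and 0.611 to 0.668 and 0.721 to 0.800 with HET1 embryos of matings 1 and 2. HET2e had a median r of 0.722 with its HOM littermates of mating 2, 0.821 and 0.771 with WT embryos of matings 1 and 2, and 0.665 with HET2a to HET2d. It was thus closest to WT embryos of mating 1, and closer to both WT litters than to its littermates. These values describe embryos that share genes, protocol and, in part, litter, and carry no p. Against the mean WT profile the correlation was 0.836, 0.839, 0.684, 0.757 and 0.896 in HET2a to HET2e and 0.637 to 0.916 in WT embryos with a median of 0.863. The difference of means was -0.0555 (adjusted p = 0.499 over 4 values, exact permutation test), and without HET2e -0.0789 (exact permutation p = 0.0392, adjusted p = 0.105). Without the WT embryos of mating 2 it was -0.0972 and passed (exact permutation p = 0.00366, adjusted p = 0.0147), but the WT profile is then that of a single litter and litter and group cannot be told apart. Of the HET2 embryos HET2e had the highest value, above the WT median.

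Within mating 1, HET2a and HET2b resembled each other, as did HET2c and HET2d, in several of these sums. Genes of COMPASS and H3K4 demethylases took 2909 and 2391 RPM in HET2a and HET2b and 4526 and 4189 RPM in HET2c and HET2d. The subcortical maternal complex took 2756 and 1713 RPM in the first pair and 6251 and 5347 RPM in the second. HET2c had the fewest reads of the 5, 698469, and HET2d, at 1102953, about as many as HET2b, at 1108889.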

How the data were processed

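Single 2-cell embryos were sequenced as oligo-dT-primed, amplified cDNA from which genomic DNA had been separated, with 75 bp paired-end reads and no molecular identifiers, so that read counts carry amplification error beyond counting error. The authors trimmed reads with Trim Galore 0.6.5 and Cutadapt 2.3, aligned them with HISAT2 2.1.0 to GRCm38, kept those of MAPQ 20 or more and quantified mRNAs without strand in SeqMonk. The deposited values are log2 RPM per gene, reads scaled to library size.

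A gene without reads stands at 0.9 read in the deposited table. Whole reads could be recovered for 99.9992% of the other values (within 0.05 read), giving 247667 to 3163026 reads per embryo. Values below the highest of the 44 column minima (1.86 log2 RPM) were set to it, which is 0.9 to 11.5 reads depending on depth. Genes with a mean of at least 0 over 44 embryos were tested with limma 3.58.1 (lmFit, eBayes with trend; R 4.3.3) in a model of 4 groups with Benjamini-Hochberg adjustment. As the unit is log2, count models were replaced by limma voom on recovered reads as an alternative. HET2 and HOM embryos were compared with the litter as a term, and single litters in a model that splits both groups by mating, which was chosen after seeing the data. Values per embryo were compared by exact permutation tests, two-sided (scipy 1.17.1, Python 3.11.15). Scripts were tested on simulated data, with 200 of 16016 genes changed in HET2 embryos. At the threshold used, 62% (change of -2) to 92% (change of 3) of the changed genes were called. So were 31 unchanged genes, and some calls at this threshold can therefore be false.

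Genes were named by these rules: up to 15 per direction past the threshold with or without HET2e, by size; the 10 per direction with the smallest p among others at a mean of at least 4 in either group; Dppa2, Dppa4, Duxf3, Serinc1, Fbxw4, Gm17018, Lmo1 and Ptov1; and of each gene list the 2 with the highest WT mean and up to 4 with an unadjusted p under 0.05. The genes, gene lists and comparison were chosen with earlier results of these data known, and lists are described by counts and medians. Embryos are separate animals but share litters, so that p-values measure the spread between embryos. Coordinates are GRCm38. Of the 35269 rows, 81 share a gene name with another row.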

Additional observations from a re-analysis of the deposited data

Results flagged for a closer look

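Of 130 values tested for a single HET2 embryo that stands apart from the other 4, 13 passed, and chance alone flags about 1 in 20 such groups. HET2e was high for Gins3 (5.75 log2 RPM), Gtf2h2 (5.02), Rpl5 (8.97), Kat2b (3.74) and Ddx21 (5.32), for each of which it lay inside the WT range. It was low for Gm4858 (4.07), Zscan4d (2.02), Omt2b (10.8), Omt2a (10.7) and Wee2 (5.64), inside the WT range for all but Gm4858. Gins3, Gtf2h2, Rpl5 and Gm4858 were named because they were called without HET2e, so that for them its position is tied to the choice of genes and supports nothing. The other 3 values were low ones, of Ctcf in HET2d (6.92), L1td1 in HET2c (1.86) and Gm45713 in HET2b (3.55). HET2e is also the only HET2 embryo of its mating, and embryo and litter cannot be told apart.

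HET2 and HET1 embryos, which share their genotype, differed past the limma threshold in Gm45205 (1.69, adjusted p = 0.00657) and Gm14325 (1.21, adjusted p = 0.00813). Both calls were lost with the litter as a random effect and without the floor. Gm45205 was above the floor in 1 of 15 HET1 embryos and Gm14325 in 0. HET2 and HOM littermates differed past it in Dppa2 (4.92) and Dppa4 (3.43), the genes by which the study assigned the embryos.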

How the results depend on the processing

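Over all 5 HET2 embryos 5 genes passed. The count was 2 without the floor or with robust eBayes, 3 with a higher floor, without the filter or without the trend, 9 with each embryo centred on its median, 117 (52 higher, 65 lower) with array weights, 8 with only HET2 and WT embryos or with voom on recovered reads, 1 at a mean of at least 4, and 98 (2 higher, 96 lower) without WT embryos of mating 1. With litter means or the litter as a random effect it was 0 in limma, with 253 and 468 genes at an unadjusted p under 0.05. Leaving out 1 embryo gave 1 to 36, with 36 without HET2e, and 1 without any of WT b, c, d, f, g, i and j. Of the 5 genes, Serinc1 was called in 30 of 35 alternatives, Gm14325 in 17 of 34, Gm45205 in 14 of 34, Zfp813-ps in 11 of 34 and Dubr in 8 of 32. Without HET2e 36 genes passed. The count was 76 without the floor, 57 for genes above the floor in at least 5 embryos, 73 centred, 339 with array weights and 376 with only HET2 and WT embryos. It was 81 (4 higher, 77 lower) without WT embryos of mating 1, 130 at a mean of at least 4, 160 with voom (116 higher, 44 lower) and 4 with a random effect of litter. A fit of litter means holds a single HET2 value here and can hardly call a gene. Leaving out a further embryo gave 13 (HET2c) to 89 (HET2b).

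Between HET2 and HOM littermates 2 genes passed, 1 with a higher floor and 2 to 5 on leaving out an embryo, 5 without HET2e. Between HET2 and HET1 2 passed, 0 without the floor or with the litter as a random effect, 1 with a higher floor, 4 centred, 22 with array weights, and 6 to 10 without a HET2 embryo. The difference in correlation with the WT profile was -0.0972 without WT embryos of mating 2 (exact permutation adjusted p = 0.0147), and that in genes above the floor ranged from -47.6 to 329.2 on leaving out an embryo. Of 4355 values of 125 named genes, 4174 kept direction and call, 89 lost a call, 88 gained one and 4 reversed: Rplp0 with array weights (-0.077), and Zscan4d (-0.28), mt-Co1 (0.18) and mt-Cytb (0.084) with litter means. The causes were not tested.

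With the mating number as a replicate block, 7 genes passed with HET2e and 116 (53 higher, 63 lower) without it. The numbers pair HET2 with HOM embryos, because these share litters, and the main comparison of these 2 groups holds the litter as a term. They pair no other groups, whose crosses are separate. Differences between matings correlated at 0.58 over 6919 genes for HET2 with HOM embryos, and at -0.76 to 0.45 for the other pairs. HET1 and HET2 embryos, which share no litter, stood at -0.58, so that a correlation of this size does not show a pairing. Depth limits genes near the floor, where 1.86 log2 RPM is up to 11.5 reads.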
